A study of Mus musculus with 20 samples.

Results

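The genes described here are 37 members of the TGF-beta and BMP signalling system. They were chosen by name from their known roles as ligands, receptors, SMADs, extracellular regulators and feedback genes, with earlier results of these data known. They are 37 of the 49585 gene IDs in the count table, all 37 were found by symbol, and all 37 were among the 20616 genes that passed the filter on low counts in the tumours. RNA was sequenced from 18 primary mouse osteosarcomas (bone tumours) taken at necropsy and from 2 libraries of 1 osteosarcoma cell line. The animals were of a C57BL/6J and 129S/SvJae mix and all carried at least 1 altered p53 allele, with no tumour or tissue of p53 wild type mice among the groups analysed here. The 4 tumour groups were p53+/- (written p53 het below, n = 4), p53R172H/+ (R172H, n = 6), p53R245W/+ (R245W, n = 3) and p53R270H/+ (R270H, n = 5). The cell line, number 14, is labelled p53R245/O, its control library is labelled as mutant with LOH (loss of heterozygosity), and the other library comes from the same line after siRNA against p53. Each line group is 1 library of 1 line, and the labels give no age, sex or tumour site for the mice.

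TGF-beta is made bound to a latency peptide and to latent TGF-beta binding proteins, and once released it joins type II and type I receptor kinases that phosphorylate SMAD2 and SMAD3. BMPs act through related receptors that phosphorylate SMAD1, SMAD5 and SMAD9, and both branches share SMAD4 for entry into gene control. In bone, TGF-beta is stored in the matrix and released when bone is resorbed, BMPs drive osteoblast differentiation, and secreted antagonists, inhibitory SMADs and repressors such as SKI and SnoN limit both branches.

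Library totals ran from 20.1 to 29.2 M counts (M, megacounts) in the tumours and were 64.1 and 73.4 M in the line. Trp53 itself ran from 14.5 to 31.6 CPM (counts out of every M counted) in p53 het, 36.2 to 65.9 CPM in R172H, 56.9 to 76.4 CPM in R245W and 25.5 to 52.0 CPM in R270H. None of the 3 mutant groups passed the test against p53 het for Trp53, with adjusted p of 0.106, 0.0744 and 0.295 in the same order by edgeR. Of 10 osteoblast markers none was at 0 in all libraries of a tumour group, and their summed level ran from 12227 to 93267 CPM over the 18 tumours. A serial number stands in the title of every R172H and R245W tumour and of p53 het 1 and 2. It is missing from every R270H title and from p53 het 3 and 4, and every R270H title also carries 1 common code that is in no p53 het title. What that serial number marks is not given, so R270H and the kind of title cannot be told apart in a comparison with R172H or R245W. Among the titles that hold it, the serial number also runs in blocks by genotype, lowest in R245W, then R172H, then p53 het. Its order and the genotype therefore cannot be told apart among those tumours either.

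Among the members that differed between genotypes, Tgfb1 and Smad5 have a promoter in the RefSeq table (GRCm38.p6), and the 250 bases before the annotated start of each are shown because the differences below turn on these genes. Capitals mark the GC-rich SMAD motif GGCGC and the Sp1 box GGGCGG, on either strand. The Tgfb1 window lies on the plus strand at chr7:25686752-25687001 and the Smad5 window on the plus strand at chr13:56702760-56703009, upstream of the earliest of 3 starts.
Tgfb1: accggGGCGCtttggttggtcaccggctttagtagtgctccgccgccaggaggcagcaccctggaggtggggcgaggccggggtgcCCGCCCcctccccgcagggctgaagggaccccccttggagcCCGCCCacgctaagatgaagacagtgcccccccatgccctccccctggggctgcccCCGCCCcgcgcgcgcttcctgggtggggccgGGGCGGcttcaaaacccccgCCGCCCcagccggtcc
Smad5: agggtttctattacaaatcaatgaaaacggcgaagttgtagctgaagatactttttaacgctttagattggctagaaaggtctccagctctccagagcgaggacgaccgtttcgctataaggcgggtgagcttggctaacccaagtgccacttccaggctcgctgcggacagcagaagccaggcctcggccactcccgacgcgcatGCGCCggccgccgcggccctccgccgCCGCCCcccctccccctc
The Tgfb1 window holds 1 GC-rich SMAD motif and 5 Sp1 boxes, and the Smad5 window holds 1 of each. Neither window holds the SMAD box CAGAC, the AP-1 site TGANTCA or the p53 decamer consensus. Over all 32841 windows of this length in the table, 42.2% hold CAGAC, 32% GGCGC, 6.75% the AP-1 site, 32.7% the Sp1 box and 7.13% the p53 decamer. Of the 25 members with a window, 11 hold CAGAC, 15 GGCGC, 0 the AP-1 site, 18 the Sp1 box and 4 the p53 decamer. Each member is counted once here, by its first listed window, while the shares above count every start of every gene. The counts of members and the shares are therefore not of like sets, and no enrichment was tested. These matches describe letters in a window of 250 bases and do not show that a factor binds there.

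The level of each member was first compared per length, as CPM per kilobase of exon, taking the median over the 18 tumours. Tgfbr1, the type I TGF-beta receptor, stood highest at 54.4 CPM per kb with a range of 17.7 to 90.2. It was followed by the common SMAD Smad4 at 31.0, the matrix protein gene Tgfbi at 30.5, the repressor Ski at 30.3 and the type II receptor Tgfbr2 at 30.01 CPM per kb. These 4 medians lie well within the spread of each gene over tumours, which was 21.5 to 35.3 CPM per kb for Smad4 and 12.9 to 70.0 for Tgfbi. The TGF-beta ligands had medians of 11.4 (Tgfb2) to 23.5 CPM per kb (Tgfb1), and the BMP and activin ligands 0.256 (Bmp7) to 7.23 CPM per kb (Bmp4). The 3 secreted inhibitors were low, from 0.700 CPM per kb for Grem1 to 1.15 for Fst. The lowest member was Bmpr1b, a type I BMP receptor, at 0.0569 CPM per kb, while the type I receptor Bmpr1a stood at 20.8 CPM per kb.

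Members also differed in how far single tumours lay apart. The receptor Acvr2a varied 1.58-fold and Smad4 1.64-fold between the lowest and the highest tumour, in CPM. The activin subunit gene Inhba varied 51.3-fold, the BMP antagonist gene Grem1 47.8-fold and Bmp7 399-fold. Their lowest tumours read 0.550, 0.329 and 0.196 CPM, near the floor of 3 counts (0.0982 to 0.141 CPM), so these folds rest on few counts. No fold was computed where the lowest tumour held 3 counts or fewer. This left out Nog (0.0861 to 11.5 CPM) and Bmpr1b (0 to 0.999 CPM). Bmp7 reached 78.5 CPM in R172H 2 and was at most 2.01 CPM in the other 5 R172H tumours.

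The 6 comparisons between genotypes were tested, with adjusted p-values over all 20616 genes, and a gene is called where adjusted p was under 0.05 in edgeR. No member was called in R172H, R245W or R270H against p53 het, where 0.0776%, 0.0728% and 0% of all genes were called. In R270H against p53 het, where no gene was called by edgeR, 2364 genes had an unadjusted p under 0.05, DESeq2 called 320 genes and limma voom 1. Nor was any member called in R245W against R172H, where 0.155% of genes were called. R270H against R172H gave 3 called members of 37, Smad5 higher and Tgfb1 and Pmepa1 lower, beside 5.28% of all genes (3.41% higher and 1.87% lower). R245W against R270H gave 1 called member, Tgfb1 higher, beside 1.24% of all genes (0.757% higher and 0.48% lower). A single test for any difference among the 4 genotypes called 4 members (Tgfb1, Pmepa1, Smad5 and Smad7) and 2.86% of all genes. The count of 3 of 37 in R270H against R172H is therefore near what the whole table gives there.

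The members as a set were unevenly split in some comparisons and evenly in others. In R172H against p53 het 26 members were above 0 and 11 below, with a median log2 fold of 0.31 beside -0.02 over all genes. R245W against p53 het had 19 above and 18 below, with a median of 0.00 beside -0.04, and R270H against p53 het 21 and 16, with 0.03 beside -0.01. Between mutants, R245W against R172H had 12 above and 25 below (median -0.13 beside -0.00), R270H against R172H 15 and 22 (-0.19 beside -0.02), and R245W against R270H 18 and 19 (-0.06 beside -0.02). An unadjusted p under 0.05 was reached by 7, 3 and 5 members for R172H, R245W and R270H against p53 het, where 12.3%, 12.5% and 11.5% of all genes did so. Between mutants it was reached by 1 member in R245W against R172H (10.8% of all genes), 6 in R270H against R172H (23.2%) and 3 in R245W against R270H (18.4%). CPM did not overlap between the groups for 1, 0 and 3 members in R172H, R245W and R270H against p53 het, beside 2.02%, 8.77% and 3.07% of all genes. Between mutants, in the same order, 2, 2 and 3 members did not overlap, beside 5.6%, 7.69% and 13.4%. The comparisons with p53 het share its 4 tumours, and those between mutants share mutant groups.

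In R172H against p53 het and in R245W against R172H no cell type marker was called, and some marker lists leaned in a single direction. In R172H against p53 het 8 of 8 endothelial markers were above 0 (median log2 fold 0.45), with summed levels of 526 to 830 CPM in R172H and 209 to 716 CPM in p53 het. Of the pericyte and smooth muscle markers 7 of 8 (0.33), of the fibroblast markers 6 of 8 (0.43) and of the erythroid markers 7 of 7 (0.29) were above 0. All 8 granulocyte markers (-1.28), all 7 skeletal muscle markers (-1.11) and 5 of 6 epidermis markers (-1.76) were below 0. The other lists had 4 of 10 (osteoblast), 4 of 7 (chondrocyte), 3 of 8 (macrophage), 5 of 8 (osteoclast) and 2 of 8 (T and NK cell) markers above 0. In R245W against R172H all 8 fibroblast markers (-1.80) and all 8 endothelial markers (-0.35) were below 0. All 8 granulocyte markers (2.82) and all 7 erythroid markers (1.504) were above. Of the macrophage (-0.24), osteoclast (-0.69) and T and NK cell (-0.76) markers 7 of 8 were below 0. Above 0 were 4 of 10 (osteoblast), 3 of 7 (chondrocyte), 3 of 7 (skeletal muscle), 2 of 8 (pericyte and smooth muscle) and 2 of 6 (epidermis). Marker lists also leaned where the members split evenly: in R245W against p53 het all 8 fibroblast markers (-1.69) were below 0. So were all 8 T and NK cell (-1.61), all 7 skeletal muscle (-1.48) and 7 of 8 macrophage markers (-0.46). Above 0 were 3 of 10 (osteoblast), 3 of 7 (chondrocyte), 2 of 8 (osteoclast), 5 of 8 (endothelial), 3 of 8 (pericyte and smooth muscle) and 1 of 6 (epidermis). There all 8 granulocyte markers (1.77) and all 7 erythroid markers (2.07) were above 0. In R270H against p53 het all 8 macrophage (-0.20), all 8 osteoclast (-0.67) and all 8 T and NK cell markers (-0.46) were below 0. So were all 7 chondrocyte (-0.76) and all 7 skeletal muscle markers (-0.60). All 8 granulocyte (3.30), all 7 erythroid (3.74) and all 6 epidermis markers (3.58) were above 0. Above 0 were 7 of 8 endothelial, 7 of 8 pericyte and smooth muscle, 2 of 8 fibroblast and 4 of 10 osteoblast markers. The part of these cells in the direction of the members was not tested.

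**Figure D1:**
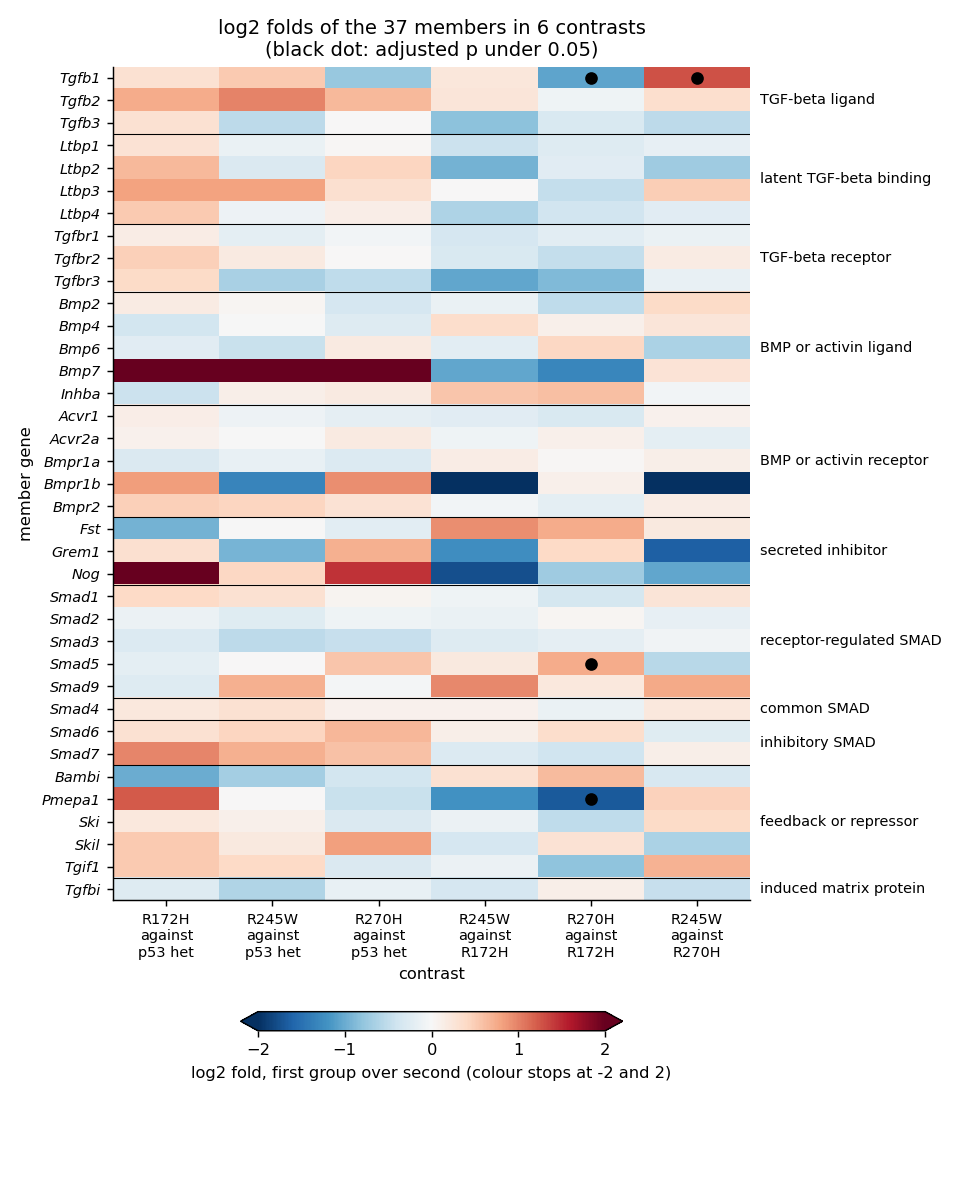
Log2 fold of each of the 37 members (rows, ordered by role) in the 6 comparisons between genotypes (columns), in colour from blue (lower in the first group) to red (higher), with the colour ending at -2 and 2. Black dots mark an edgeR adjusted p under 0.05, and these are Tgfb1, Smad5 and Pmepa1 in R270H against R172H and Tgfb1 in R245W against R270H.

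**Figure D2:**
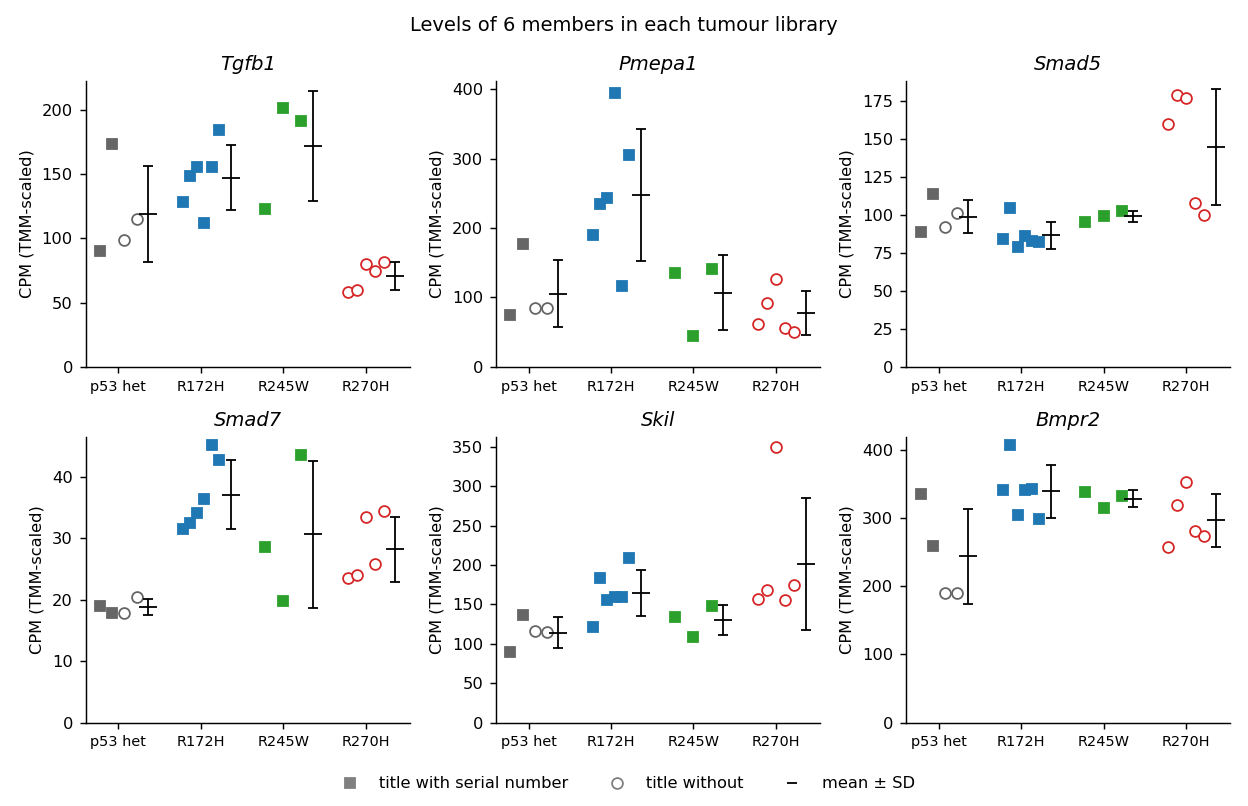
CPM of Tgfb1, Pmepa1, Smad5, Smad7, Skil and Bmpr2 (vertical, linear axes from 0) in each tumour by genotype (horizontal), with 1 point per tumour and the mean ± SD beside each group. Filled squares are tumours whose title holds a serial number and open circles those without, and Tgfb1 in the 5 R270H tumours (58.1 to 81.4 CPM) sits below all other tumours.

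Tgfb1 (chromosome 7, 25687002 to 25705077, plus strand, GRCm38), the main TGF-beta isoform stored in bone, was lowest in the R270H tumours. The 5 R270H tumours read 58.1, 60.1, 79.9, 74.2 and 81.4 CPM. The p53 het tumours read 90.3, 173, 98.8 and 115 CPM, and the R245W tumours 123, 201 and 191 CPM. R172H ran from 112 to 184 CPM with a median of 152. Every R270H tumour therefore lay below every tumour of the other 3 groups, while p53 het, R172H and R245W overlapped. Tgfb1 fell in R270H against R172H by 1.06 ± 0.20 (SE) on the log2 scale (edgeR adjusted p = 0.0108), from 147 ± 25.04 to 70.7 ± 10.99 CPM (SD). In R245W against R270H it was higher by 1.28 ± 0.23 (adjusted p = 0.0151 by edgeR). In that comparison no cell type marker was called, but all 8 fibroblast markers were below 0 (median -1.36), with sums of 775 to 2836 CPM in R245W and 1775 to 7920 CPM in R270H. All 8 granulocyte markers (-1.37), 6 of 7 erythroid markers (-2.10) and all 6 epidermis markers tested (-5.34) were below 0 as well, and Krt1 and Krtdap were at 0 in all R245W tumours. Median sums in R245W and R270H were 68.7 and 81.9 CPM (granulocyte), 431 and 161 CPM (erythroid) and 4.70 and 5.58 CPM (epidermis). The highest sums in R270H were 1227, 1733.5 and 405 CPM in the same order. The part of these cells in the difference was not tested. The difference of R270H from p53 het was -0.75 ± 0.21 with no overlap, and did not pass (edgeR adjusted p = 0.198). In this RNA of whole tumours, fewer cells of a type and less RNA per cell cannot be told apart.

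With the kind of title as a covariate, which only the p53 het tumours inform, the Tgfb1 values were -0.76 ± 0.37 for R270H against R172H (edgeR adjusted p = 0.587) and 0.98 ± 0.39 for R245W against R270H (adjusted p = 0.466). The 2 p53 het tumours without a serial number do not carry the code of the R270H titles, so the labels do not show that they form 1 batch with R270H. Against these 2 tumours, Tgfb1 in R270H was at -0.59 ± 0.22 (edgeR adjusted p = 0.400). The call in R245W against R270H was lost without R245W 2 (edgeR adjusted p = 0.0501) or without R245W 3 (0.0685).

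The other TGF-beta ligands, Tgfb2 and Tgfb3, passed in none of the 6 comparisons. Their spread within a genotype was wide: in p53 het, Tgfb2 ran from 15.6 to 112.999 CPM and Tgfb3 from 32.3 to 138 CPM. In R270H against R172H the 3 ligands had log2 folds of -1.06 (Tgfb1) to -0.09 (Tgfb2). The 4 latent TGF-beta binding protein genes, Ltbp1 to Ltbp4, whose products hold latent TGF-beta in the matrix, did not pass either. All 4 were above 0 in R172H against p53 het (0.29 to 0.80) and below 0 in R270H against R172H (-0.48 to -0.22), with a lowest edgeR adjusted p of 0.415 and 0.446.

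None of the TGF-beta receptors passed in any comparison. Tgfbr1 averaged 299 to 380 CPM and Tgfbr2 228 to 316 CPM over the genotypes, and the coreceptor gene Tgfbr3 41.6 to 85.0 CPM. The log2 folds of these 3 ran from -1.03 for Tgfbr3 in R245W against R172H to 0.48 for Tgfbr2 in R172H against p53 het. Tgfbi, a matrix protein gene named for its induction by TGF-beta, averaged 93.7 to 142 CPM, and its lowest edgeR adjusted p among the 6 comparisons was 0.641.

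Smad5, a receptor-regulated SMAD of the BMP branch (chromosome 13, 56703010 to 56742377, plus strand), was highest in R270H. It read 160, 179, 177, 108 and 100 CPM there, and from 79.0 to 104 CPM with a median of 83.6 in R172H. The p53 het tumours read 89.1, 114, 92.0 and 101 CPM and the R245W tumours 95.7, 99.2 and 102 CPM. R270H 1, 2 and 3 lay above all other tumours, and R270H 4 and 5 lay within the range of p53 het. Smad5 rose in R270H against R172H by 0.74 ± 0.16 on the log2 scale (edgeR adjusted p = 0.0165), from 86.6 ± 9.06 to 145 ± 38.1 CPM (SD), and the 2 groups overlapped. The differences of R270H from p53 het (0.55 ± 0.18) and of R245W from R270H (-0.55 ± 0.19) did not pass, with edgeR adjusted p of 0.244 and 0.147. With the kind of title as a covariate the difference from R172H was 0.81 ± 0.31 (edgeR adjusted p = 0.539). Exons of Smad5 overlap a small RNA gene on the same strand, and how such reads were counted is not given.

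The other receptor-regulated SMADs and Smad4 passed in none of the 6 comparisons. Smad1, Smad2 and Smad3 averaged 35.6 to 47.0, 52.4 to 62.2 and 97.5 to 141 CPM over the genotypes, and Smad4 averaged 102 to 125 CPM. Smad9, the third SMAD of the BMP branch, read 27.4, 49.8 and 24.9 CPM in R245W and 13.3 to 23.4 CPM (median 15.8) in R172H. In p53 het it read 25.1, 34.5, 8.91 and 14.9 CPM, and in R270H 26.4, 8.31, 7.48, 20.4 and 38.5 CPM. R245W and R172H did not overlap for Smad9, and the difference of 0.96 ± 0.46 did not pass (edgeR adjusted p = 0.464).

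Smad7 (chromosome 18, 75367529 to 75395935, plus strand), an inhibitory SMAD that TGF-beta itself induces, was lowest in p53 het. The 4 p53 het tumours read 18.9, 17.8, 17.9 and 20.5 CPM, the narrowest spread of any group for this gene. R172H ran from 31.6 to 45.2 CPM with a median of 35.2, the R245W tumours read 28.6, 19.8 and 43.5 CPM, and the R270H tumours 23.5, 23.999, 33.5, 25.9 and 34.4 CPM. R172H and R270H lay wholly above p53 het, and R245W overlapped it through R245W 2. The test for any difference passed for Smad7 just under the threshold of 0.05 (edgeR adjusted p = 0.0497). It called fewer members in every fit that left out 1 tumour. No single comparison passed: R172H against p53 het gave 0.98 ± 0.20 (edgeR adjusted p = 0.0667), R245W 0.71 ± 0.23 (0.240) and R270H 0.59 ± 0.21 (0.281). DESeq2 called the first of these, with the same log2 fold of 0.98 and an adjusted p of 0.00118. Against the 2 p53 het tumours of the same kind of title that log2 fold was 1.003 ± 0.27 (edgeR adjusted p = 0.408). Smad6, the inhibitory SMAD of the BMP branch, averaged 33.1 to 52.4 CPM over the genotypes and passed nowhere.

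Pmepa1 (chromosome 2, 173224458 to 173276533, minus strand), a membrane protein gene that TGF-beta induces and that restrains SMAD signalling in turn, was highest in R172H. It ran from 117 to 394 CPM with a median of 239 in R172H. The p53 het tumours read 74.6, 177, 85.3 and 85.1 CPM, the R245W tumours 135, 44.3 and 141 CPM, and the R270H tumours 62.2, 92.5, 127, 55.8 and 51.0 CPM. Of the 6 R172H tumours 5 lay above all tumours of the other groups, and R172H 5, at 117 CPM, lay among them. Pmepa1 fell in R270H against R172H by 1.67 ± 0.37 on the log2 scale (edgeR adjusted p = 0.0189), from 247 ± 95.1 to 77.6 ± 31.8 CPM (SD). The differences of R172H from p53 het (1.23 ± 0.39) and of R245W from R172H (-1.21 ± 0.44) did not pass, with edgeR adjusted p of 0.241 and 0.323. Without R270H 1 the call was lost at an edgeR adjusted p of 0.050002, with a log2 fold of -1.60. With the kind of title as a covariate the log2 fold was -1.11 ± 0.69 (edgeR adjusted p = 0.651).

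Skil, which encodes the SMAD repressor SnoN (chromosome 3, 31095058 to 31122577, plus strand), read 157, 169, 350, 156 and 175 CPM in R270H. It read 89.4, 136, 117 and 114 CPM in p53 het and 134, 109 and 148 CPM in R245W, and ran from 121 to 209 CPM (median 159) in R172H. R270H lay above p53 het and R245W with no overlap, but the differences of 0.82 ± 0.24 from p53 het and of -0.63 ± 0.26 for R245W against R270H did not pass (edgeR adjusted p = 0.206 and 0.208). The related repressor Ski averaged 135 to 191 CPM, the decoy receptor gene Bambi 73.7 to 147 CPM and the corepressor Tgif1 31.5 to 54.8 CPM, and none of the 3 passed. Tgif1 did not overlap between R270H (20.1 to 37.5 CPM) and R172H (39.1 to 79.2 CPM), a gene singled out after its values were seen, and its difference of -0.80 had an edgeR adjusted p of 0.104.

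**Figure D3:**
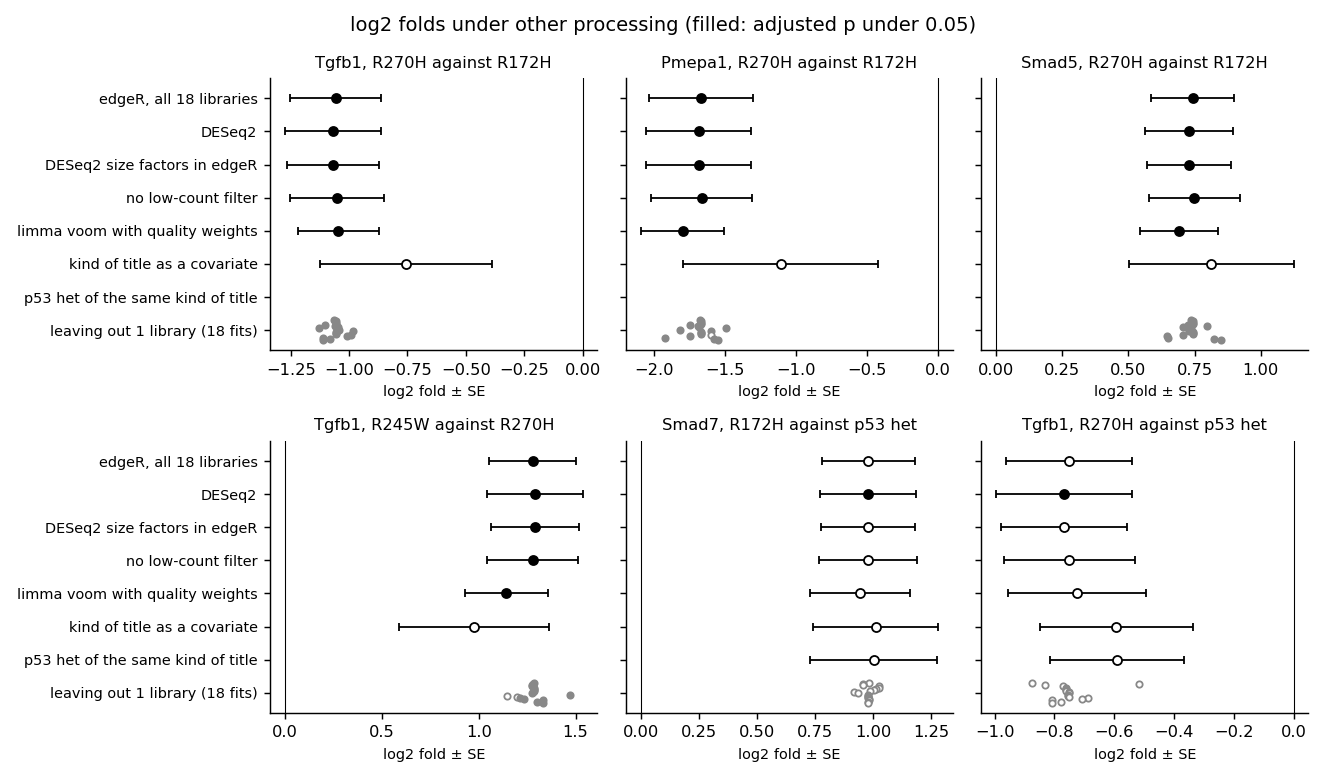
Log2 fold (horizontal, bars ± SE) of Tgfb1, Pmepa1, Smad5 and Smad7 in 6 panels of gene and comparison, under each setting (rows), with the 18 fits that leave out 1 tumour as grey points. Filled points have an adjusted p under 0.05, and all points for Tgfb1 in R270H against R172H lie between -1.13 and -0.76, the latter with the kind of title as a covariate.

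None of the BMP and activin ligands, receptors and secreted inhibitors passed. Bmpr2, the type II BMP receptor (chromosome 1, 59763400 to 59879014, plus strand), read 336, 259, 189 and 190 CPM in p53 het and 338, 315 and 331.8 CPM in R245W. It ran from 299 to 407 CPM (median 341) in R172H, and read 257, 318, 353, 281 and 273 CPM in R270H. The 2 p53 het tumours whose titles lack a serial number were the 2 lowest of all 18. R172H and R245W differed from p53 het by 0.48 ± 0.17 and 0.43 ± 0.20 (edgeR adjusted p = 0.294 and 0.387), and by 0.18 and 0.13 from the 2 p53 het tumours of their own kind of title.

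Bmpr1b was under 1 CPM in all 18 tumours, where the floor of 3 counts was 0.0982 to 0.141 CPM. It was at 0 counts in p53 het 1, p53 het 2 and R245W 2, and read 0.0933 and 0.884 CPM in p53 het 3 and 4. R245W 1 and 3 read 0.0883 and 0.205 CPM, R172H ran from 0.277 to 0.999 CPM (median 0.350), and R270H read 0.320, 0.659, 0.507, 0.547 and 0.442 CPM. R245W lay below R172H and R270H with no overlap, by -2.16 ± 1.08 and -2.25 ± 1.10, and neither difference passed (edgeR adjusted p = 0.492 and 0.287). With the kind of title as a covariate the latter turned to 4.35 ± 1.89 (edgeR adjusted p = 0.501). The receptors Bmpr1a, Acvr1 and Acvr2a averaged 146 to 180, 49.5 to 61.1 and 30.4 to 34.6 CPM over the genotypes.

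Among the BMP and activin ligands, Bmp2 averaged 15.05 to 21.3 CPM, Bmp4 19.0 to 24.4 CPM, Bmp6 3.07 to 4.76 CPM and Inhba 9.72 to 14.8 CPM over the genotypes. Bmp7 had the largest log2 fold of any member, 4.28 ± 1.74 in R172H against p53 het, and did not pass (edgeR adjusted p = 0.339). Without R172H 2, which read 78.5 CPM, that log2 fold was -0.04 ± 0.95, and limma voom gave 0.50 with all tumours. The secreted inhibitors Fst, which binds activin, and Nog and Grem1, which bind BMPs, averaged 5.02 to 9.67, 0.931 to 4.20 and 1.77 to 5.54 CPM. Their SD reached 9.74, 4.05 and 6.11 CPM within a genotype, and none passed.

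Markers of other cell types moved with R270H against R172H as well. Of 8 granulocyte markers 3 were called higher in R270H (Ltf, S100a8 and S100a9), and their summed level ran from 17.4 to 1227 CPM (median 81.9) in R270H and from 2.36 to 41.2 CPM (median 9.93) in R172H. Of 7 erythroid markers 3 were called higher, with sums of 48.6 to 1733 CPM (median 161) in R270H and 51.3 to 409 CPM (median 106) in R172H. Of 6 epidermis markers tested 3 were called higher, with sums of 4.57 to 405 CPM in R270H and 2.81 to 9.12 CPM in R172H. The epidermis medians were 5.58 and 4.44 CPM, so most R270H tumours lay within the range of R172H for that list. Of the others, 1 osteoclast marker of 8 (Nfatc1) and 1 macrophage marker of 8 (Cd68) were called lower. Below 0 were 7 of 8 osteoclast markers (median log2 fold -1.08) and 4 of 8 macrophage markers. Osteoclast sums were 290 to 11402 CPM (median 4706) in R270H and 7853 to 11426 CPM (median 8245) in R172H. Macrophage sums were 805 to 2097 CPM in R270H and 1246 to 2281 CPM in R172H, and no marker of these lists was at 0 in all libraries of either group. No osteoblast, fibroblast or chondrocyte marker was called in that comparison, but 6 of 7 chondrocyte markers were below 0 (-1.42). Chondrocyte sums were 52.0 to 520 CPM (median 112) in R270H and 124 to 1471 CPM (median 327) in R172H. The osteoblast list had 5 of 10 markers above 0, and the fibroblast list 3 of 8. Above 0 were also 4 of 8 (endothelial), 5 of 8 (pericyte and smooth muscle), 5 of 7 (skeletal muscle) and 5 of 8 (T and NK cell). The part of these cells in the differences of Tgfb1, Pmepa1 and Smad5 was not tested.

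A further 65 genes of the pathway that are not members were followed in the same fit, and 60 of them passed the low-count filter. Only 1 was called in any pairwise comparison by edgeR: Id3, a transcription regulator that BMP signals induce, rose in R270H against R172H by 0.92 ± 0.25 on the log2 scale (adjusted p = 0.0437), from 161 ± 54.0 to 305 ± 112 CPM (SD). The Id3 call was lost in 10 of the 18 fits that left out 1 tumour, namely R172H 1, 2, 3, 4 or 5, R245W 1 or 3, or R270H 1, 3 or 5, with log2 folds over the 18 fits from 0.71 to 1.08 and edgeR adjusted p up to 0.118. It was also lost without the low-count filter (edgeR adjusted p = 0.0630) and with the kind of title as a covariate (0.632). In the same comparison 34 of the 60 were above 0 and 26 below with a median of 0.08, and Rgma, a BMP coreceptor gene, was at -2.38 ± 0.71 without passing (edgeR adjusted p = 0.0581). Rgma ran from 3.01 to 50.4 CPM (median 6.04) in R172H and from 0.422 to 3.89 CPM (median 3.23) in R270H. In R172H, R245W and R270H against p53 het the medians of the 60 were 0.06, -0.18 and 0.03. The lowest p-values there belonged to Bmp1, a procollagen protease gene (-1.19 ± 0.43 in R172H and -1.40 ± 0.54 in R245W), to Snw1, a SMAD coregulator gene (-0.51 ± 0.20 and -0.67 ± 0.25), and in R270H to the TGF-beta response genes Ccn2 (1.91 ± 0.74) and Tagln (1.19 ± 0.51). None of these passed, with edgeR adjusted p from 0.286 to 0.375. Ccn2 ran from 68.6 to 765 CPM (median 116) in R270H and from 52.6 to 91.0 CPM (median 66.0) in p53 het. Tagln was low in both groups, at 0.703 to 0.967 CPM in R270H and 0.215 to 0.653 CPM in p53 het. In R245W against R172H the lowest p-values were those of the activin receptor gene Acvr1b (-0.54 ± 0.19) and the BMP antagonist gene Chrdl1 (3.20 ± 1.11), both at an edgeR adjusted p of 0.304. Chrdl1 ran from 12.0 to 127 CPM (median 15.5) in R245W and from 0.242 to 14.3 CPM (median 5.13) in R172H. In R245W against R270H the lowest p-values were those of Msx2, a BMP response gene (-3.34 ± 1.26, edgeR adjusted p = 0.170), and Snw1 (-0.61 ± 0.24, 0.185). Msx2 was low, at 0.0470 to 0.221 CPM in R245W and 0.0879 to 4.50 CPM (median 1.01) in R270H. The floor of 3 counts was 0.0982 to 0.141 CPM in the tumours. Exons of Snw1, Tagln, Ccn2 and Rgma overlap genes on the opposite strand, and whether the counting used strand is not given.

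In the cell line, Trp53 read 94.9 CPM in the control (95% Poisson interval 92.5 to 97.3) and 30.6 CPM (29.3 to 31.9) after p53 siRNA, a log2 ratio of -1.60. With 1 library a group there is no test, and the exact Poisson intervals cover counting error only. Of 28 members with at least 10 CPM in 1 of the 2 libraries, 8 were higher and 20 lower after siRNA, with log2 ratios of CPM plus 1 from -0.61 to 0.45 and a median of -0.09. No member was past 2-fold, beside 0.117% of the 9398 genes at that level. Over those 9398 genes the median was -0.02 and the 5th and 95th percentiles were -0.32 and 0.24.

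Skil had the largest ratio in size, with 189 CPM (186 to 192) in the control and 123 CPM (121 to 126) after siRNA, a log2 ratio of -0.61. Smad6 was the member with the largest ratio upward, from 19.4 CPM (18.4 to 20.6) to 27.02 CPM (25.8 to 28.2), a log2 ratio of 0.45. Skil and Smad6 lay outside the 5th to 95th percentile of all genes, as did Fst at 0.26 (27.2 and 32.8 CPM). The next lower ratios, within these percentiles, were -0.30 for Inhba (60.5 and 49.0 CPM), -0.29 for Tgif1 (100.2 and 81.7 CPM) and -0.25 for Smad7 (34.6 and 28.9 CPM). Bmpr2 followed at -0.23 (146 and 124 CPM) and Grem1 at -0.21 (157 and 136 CPM). Whether these ratios exceed the spread between cultures cannot be told from 1 library each.

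The line was also set beside the tumours, as a description across cultured cells and tissue. Both line libraries lay above all 18 tumours for 8 members of 37 and below all 18 for 10, where 16.7% and 25.7% of all genes did so. These counts are near what the whole table gives. The 8 were Ltbp1, Ltbp2, Bmp4, Bmpr1b, Inhba, Fst, Grem1 and Tgif1. Grem1 read 157 and 136 CPM in the line and at most 15.7 CPM in a tumour, and Bmp4 read 199 and 211 CPM and at most 52.5 CPM. The 10 were Tgfb1, Tgfbr1, Ltbp3, Ltbp4, Bmp2, Bmp7, Bmpr2, Acvr2a, Tgfbi and Bambi. Tgfb1 read 6.62 and 7.54 CPM in the line and at least 58.1 CPM in each tumour, and Tgfbi read 3.07 and 4.19 CPM and at least 48.7 CPM. Bmp7 had 0 counts in both line libraries, where the floor of 3 counts was 0.0468 and 0.0409 CPM. The summed osteoblast markers were 2895 and 3243 CPM in the line, and the summed macrophage markers 17.0 and 18.3 CPM, beside 805 to 2281 CPM in the tumours. The part of these cells in the differences between line and tumours was not tested.

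**Figure D4:**
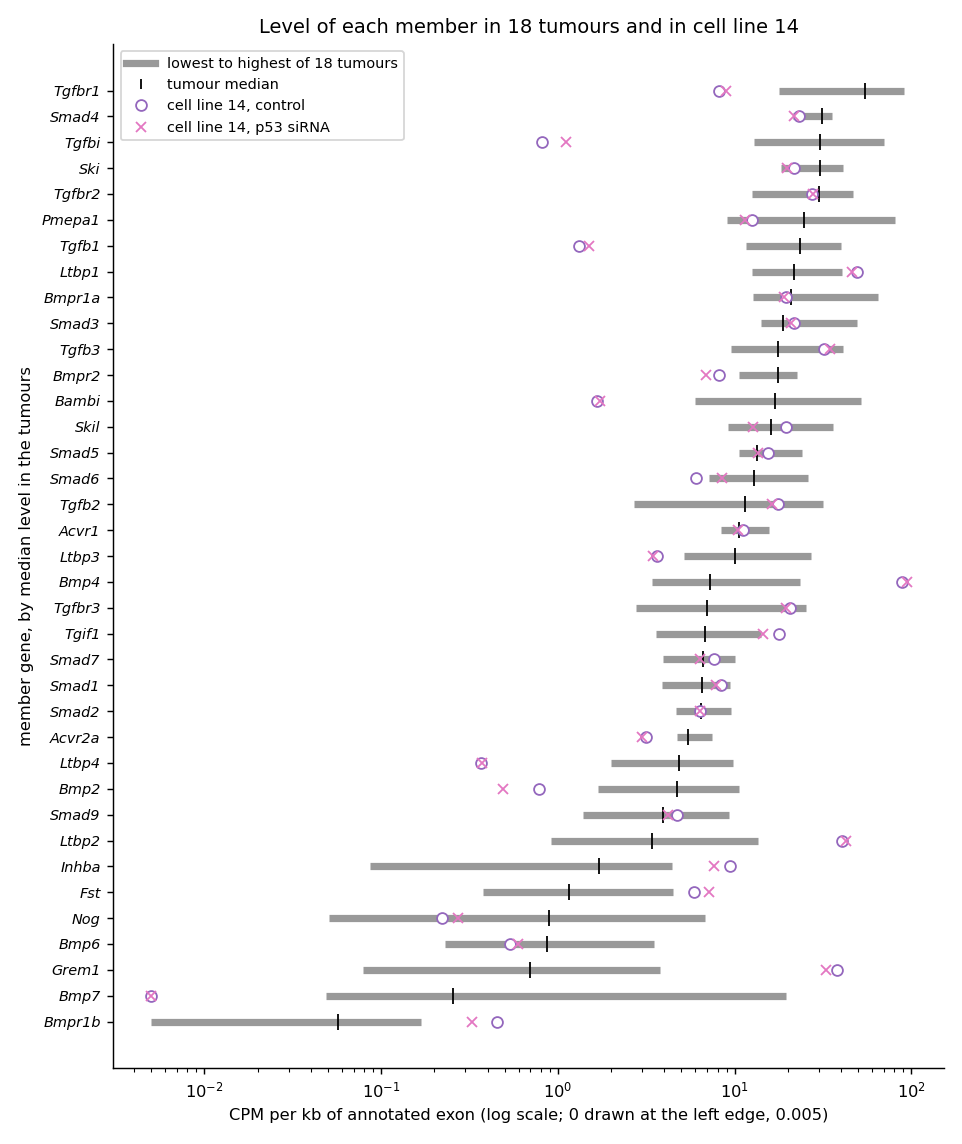
Level of each member as CPM per kb of exon (horizontal, log axis, with 0 drawn at the left edge), where grey bars run from the lowest to the highest of the 18 tumours, ticks are tumour medians, and the circle and cross are the control and p53 siRNA libraries of cell line 14. Members are ordered by tumour median from Tgfbr1 (54.4) to Bmpr1b (0.0569), and the line libraries lie above the bar for 8 members such as Grem1 and below it for 10 such as Tgfb1.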

How the data were processed

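Tumours were frozen and crushed, their RNA was extracted with Trizol reagents and columns, and libraries followed Illumina protocols, per the labels' protocols. Per the submitters' processing notes, reads were aligned to GRCm38 with STAR 2.6.0b, and DESeq2 was used, without a version. The authors deposited raw counts per gene ID for all 20 libraries, and 0 columns were left unused. The counting program, its annotation and strand setting are not given in the sources used here. Symbols matched 49326 of the 49585 IDs. Coordinates and exon lengths come from GENCODE on GRCm38, where exons of 11 of the 37 members overlap another gene.

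Tumour counts were analysed with edgeR 4.0.16 in R 4.3.3. Genes passed filterByExpr by genotype (minimum count 10, minimum total 15), libraries were scaled by TMM (factors 0.854 to 1.11), and 1 quasi-likelihood fit of 18 tumours with 1 coefficient per genotype gave all contrasts on 14 residual degrees of freedom. The standard error is the log2 fold divided by the square root of F, without sign. Benjamini-Hochberg adjustment covered the 20616 genes of a contrast, with a threshold of 0.05. They measure the spread between these samples, since the labels do not say how tumours and animals relate. CPM in tumours use TMM-scaled library totals, and those of the line its plain total. Intervals and floors cover counting error only.

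Values per library were given for members that passed anywhere, the 3 of lowest p in each comparison, members with no overlap and a log2 fold of at least 1 in size, and in the line the 8 largest ratios among members of at least 10 CPM. For R172H these values were shortened to a range and median. Of the second list, genes that passed or the 2 of lowest p were named. Genes outside this rule were chosen after their values were seen. The members and lists were chosen with earlier results of these data known. Alternatives were DESeq2 1.42.0, edgeR with size factors of DESeq2, all genes with a count, voom with quality weights of limma 3.58.1, the kind of title as a covariate, p53 het tumours of 1 kind of title only, and leaving out each tumour. Line ratios were repeated with other pseudocounts (0.1 and 5 CPM), TMM scaling and a minimum of 1 CPM. The fitting code was tested on simulated data.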

Additional observations from a re-analysis of the deposited data

Results flagged for a closer look

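Single tumours stood apart from the rest of their group for 8 of 111 gene and group pairs tested on log2 CPM (groups of 4 to 6 tumours), and chance gives about 1 in 20. All 8 were on the high side. In p53 het 1, the coreceptor gene Tgfbr3 was at 161.5 CPM beside 29.5 to 39.1 in the other p53 het tumours, and Smad3 was at 273.2 CPM beside 87.3 to 102. In p53 het 2, Pmepa1 was at 177.4 CPM beside 74.6 to 85.3, and Tgif1 at 68.0 CPM beside 28.4 in each of the others. In R172H 2, Smad5 was at 104.4 CPM beside 79.0 to 86.5, and Bmp7 at 78.5 CPM beside 0.277 to 2.01. Ltbp3 was at 246.2 CPM in R172H 5 beside 76.6 to 99.8 in the other R172H tumours. Skil was at 350.2 CPM in R270H 3 beside 156 to 175 in the other R270H tumours.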

How the results depend on the processing

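No paired analysis was possible because the numbers of the tumours only follow the order of the samples and the titles name no pairs. A few numbers recur in titles of different groups, but no label says that they mark pairs. Members called by edgeR were 0 in R172H and in R270H against p53 het, and DESeq2 called 1 in each: Smad7, and Tgfb1 at -0.77 (adjusted p = 0.0480). With the kind of title as a covariate 0 members were called in R270H against R172H (3 without it), in R245W against R270H (1) and in the test for any genotype (4), and 1 gene of the whole table in R270H against R172H instead of 1088. In R245W against R270H leaving out single tumours gave 0 to 1 members. The test for any genotype called 2 members with DESeq2 size factors, 2 with no low-count filter and 2 with limma voom, and 0 (without R270H 1) to 3 when single tumours were left out. Of the other pathway genes in R270H against R172H (1 called), DESeq2 called 4, limma voom 3, no filter 0, the covariate 0, and leaving out single tumours 0 to 2. In R172H against p53 het leaving out single tumours gave 0 to 1 such genes, the 1 without p53 het 2. Bmpr1b in R245W against R270H reversed to 4.35 with the covariate. The cause of these changes was not tested.

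Among alternative values for single members, 468 were counted as the same, 7 lost a call, 2 gained one and 1 reversed. A tumour fold counted as the same where it kept its direction and side of the threshold. Most of these folds were not called in the main fit and counted as the same by staying uncalled, so the 468 do not measure how stable the calls were. In R270H against R172H the calls of Tgfb1, Pmepa1 and Smad5 were kept in 22, 21 and 22 of 23 other settings. The call of Tgfb1 in R245W against R270H was kept in 20 of 23. The 468 include line ratios, which have no p-value and counted as the same where they shifted by less than counting error. Over all genes, the counts for R172H, R245W and R270H against p53 het, R245W against R172H, R270H against R172H, R245W against R270H and any genotype were 16, 15, 0, 32, 1088, 255 and 590 in edgeR. DESeq2 gave 295, 353, 320, 348, 2226, 1194 and 2475, and limma voom 0, 14, 1, 119, 2294, 1047 and 330. No filter gave 33 for R172H and 2 for R270H against p53 het, 633 for R270H against R172H and 109 for R245W against R270H. The covariate gave 3, 8 and 4 against p53 het, 8 for R245W against R270H and 19 for any genotype, and p53 het of 1 kind of title gave 4, 9 and 4 against p53 het. Leaving out single tumours moved R172H against p53 het from 0 to 166, R245W against p53 het from 5 to 30, R270H against p53 het from 0 to 21, R245W against R172H from 14 to 39, R270H against R172H from 469 to 1323, R245W against R270H from 48 to 411 and any genotype from 185 to 937. Line ratios past 2-fold stayed at 0 members under each setting run. Bmpr1b had 0 counts in 3 tumours and at most 27 counts in any.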
